A study of Homo sapiens with 36 samples.

Results

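The genes described are 10 genes of the tight junction in HK-2 cells, 8 claudins (CLDN1, CLDN2, CLDN3, CLDN4, CLDN7, CLDN11, CLDN12 and CLDN16), occludin (OCLN) and the scaffold gene TJP1. They were taken by name and are 10 of the 19775 genes that a probe set of the Affymetrix array represented. A probe set is a group of short probes for 1 transcript, and the 10 genes had 19 of them. Each gene is given by its set with the highest mean over the 36 arrays, and the other sets of 6 genes served as a check. HK-2 is a human proximal tubule cell line that was immortalized, and each of the 36 arrays measured total RNA of 1 culture. The 12 groups hold 3 biological replicates each: vehicle, low dose and high dose of a compound labelled Aa at 24 h and at 48 h, and vehicle, low dose and high dose of a compound labelled Ota at 24 h and at 72 h. Each compound and time had vehicle controls of its own. Treatment began at near confluence, 24 h after seeding. The labels give neither full compound names nor concentrations, so the doses of Aa and Ota are not matched. The question was how these junction genes stood in untreated HK-2 cells, and which of them moved with dose, time and compound.

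Tight junctions are the belts that seal the gap between neighbouring epithelial cells and decide which ions and molecules pass between them. Claudins form their strands: some, such as CLDN1, CLDN3 and CLDN4, are known mainly as barrier formers, while CLDN2 forms pores for cations and water and is typical of the leaky proximal tubule. Occludin is a membrane protein of the strands, and TJP1, also called ZO-1, is the cytoplasmic scaffold that ties claudins and occludin to the actin skeleton.

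All values are log2 expression values made by the authors with GCRMA, and a value at or under 4 was treated as background. Between replicates of a group, the correlation over tested genes ran between 0.953 and 0.994. The Ota high dose arrays stood apart in scale: their medians over tested genes were 7.33 to 7.65 at 24 h and 7.79 to 7.89 at 72 h, against 8.0 to 8.29 on all other arrays. Setting every array to a common median therefore added 0.67 to each Ota high dose change at 24 h and 0.34 at 72 h, and at most 0.11 in size to any Aa dose change. Directions given below for called Ota changes held under that scaling and under quantile normalization unless the opposite is stated. A marker of RNA quality, the difference between the 3' and 5' control probe sets of ACTB, was 1.57 to 2.29 in Ota high dose at 72 h against 1.12 to 1.40 in its controls, and 1.04 to 1.60 in Aa high dose at 48 h against 0.681 to 1.11 in its controls. Its part in the results at those times was not tested. Of 10 proximal tubule markers with a probe set, 1 (SLC3A1) exceeded 4 on all controls and 8, among them LRP2, CUBN and AQP1, were at or under 4 on all 36 arrays. All 7 epithelial markers, including CDH1, EPCAM and KRT18, exceeded 4 on every control. The summed level of 5 leukocyte markers was 6.96 to 7.37 in Ota high dose at 24 h against 4.82 to 4.85 in its controls. At 72 h it was 6.75 to 7.37 against 4.76 to 4.94. FCER1G read 6.66, 6.12 and 6.64 in Ota high dose at 24 h and 6.79, 7.14 and 6.38 at 72 h. In Aa high dose at 48 h it read 4.68, 4.19 and 5.32. Its controls at these times were under 4. ITGAM read 4.29, 5.07 and 5.53 in Ota high dose at 24 h and was under 4 in that at 72 h. PTPRC, CD3E and LYZ were at or under 4 on all 36 arrays. Of 6 fibroblast markers, DCN, LUM and COL1A1 exceeded 4 on all controls, and COL1A2, COL3A1 and PDGFRB were at or under 4 on all 36 arrays. In these bulk cultures, fewer cells of a kind and less RNA per cell cannot be told apart.

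Of the 10 genes, 9 exceeded 4 on every control array, and CLDN7 did not. CLDN7, a claudin of the distal nephron and collecting duct, lay between 2.01 and 2.09 on all 36 arrays and was not tested. CLDN3 was near background, with 5.04 to 6.52 on control arrays, and exceeded 4 on 28 of the 36 arrays and on all 3 arrays of 9 groups. The other 8 genes exceeded 6 on every control array. CLDN1 ranged between 14.04 and 14.74 on controls, CLDN2 between 8.84 and 11.24, and CLDN16, known for the reabsorption of magnesium and calcium in the thick ascending limb, between 8.24 and 10.62. CLDN11, best known from myelin and the testis, lay between 10.24 and 11.24 on controls. CLDN12, a widely expressed claudin, lay there between 8.85 and 9.66, and CLDN4 between 7.58 and 8.71. OCLN ran between 8.88 and 10.79 and TJP1 between 10.87 and 11.47 on controls. Values of different genes come from different probes and were not set against each other. A control range for OCLN or CLDN2 also holds a difference between control groups that is described with the time comparisons.

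**Figure D1:**
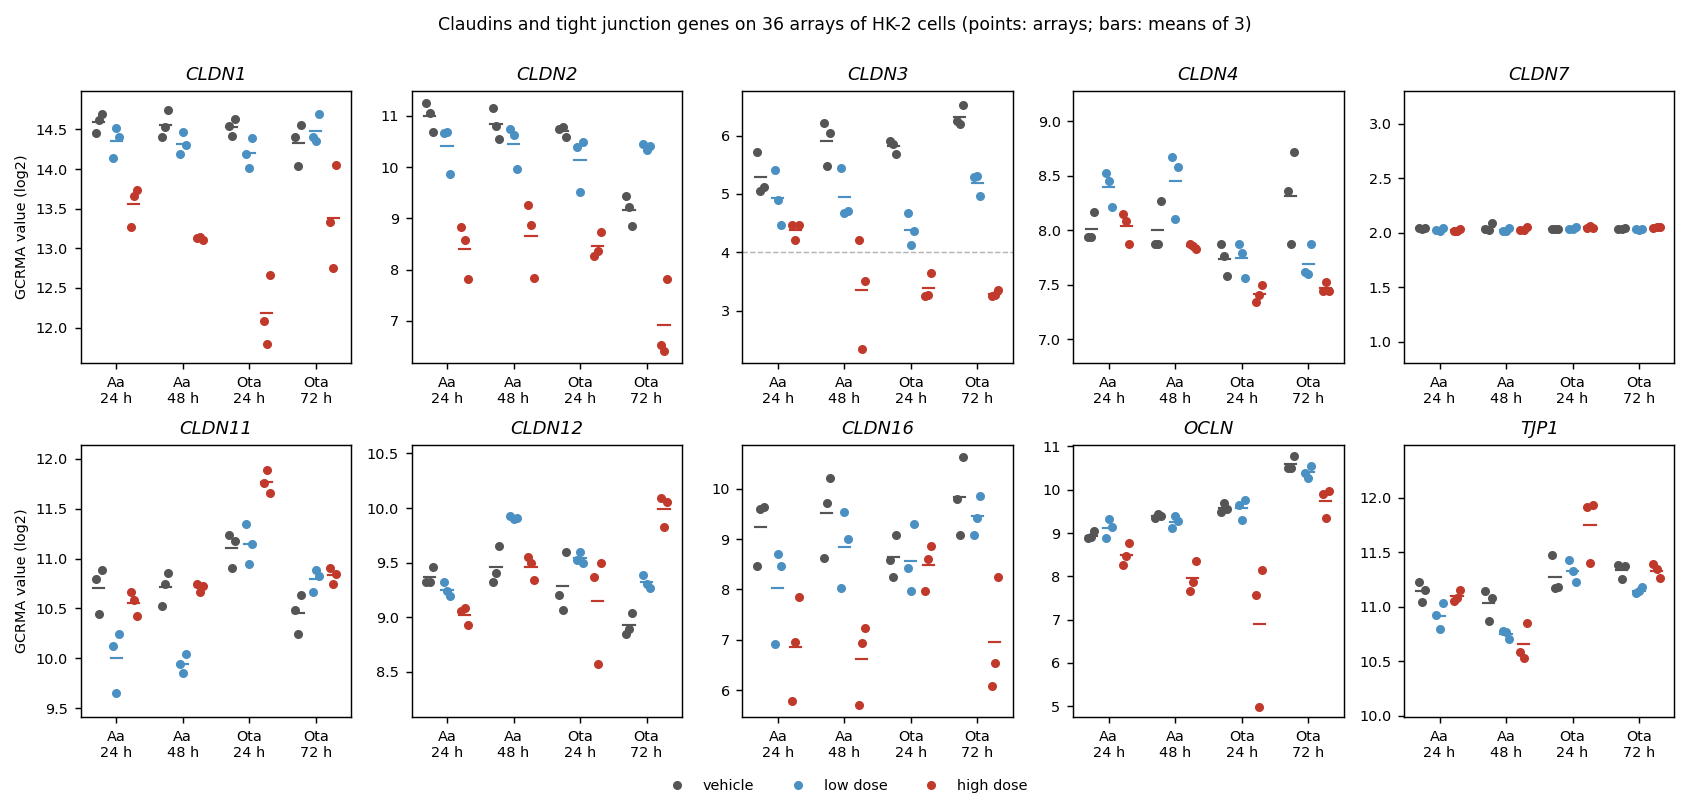
Log2 expression of each of the 10 genes on the 36 arrays (y axes, each on a scale of its own; dashed line at 4) by group (x axes, vehicle, low and high dose at each time of Aa and Ota). Points are arrays and bars are means of 3; CLDN7 stayed between 2.01 and 2.09, and CLDN2 ranged between 6.42 and 11.24.

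Ranked by group mean, the 12 groups overlapped almost everywhere between neighbours: of 11 neighbouring pairs, 0 were apart for CLDN16, 1 for each of CLDN2, CLDN3, CLDN4 and CLDN12, and 2 for each of CLDN1, CLDN11, OCLN and TJP1. Neighbours in a ranking by mean lie close by construction, and all genes were not counted this way. The counts therefore show nothing particular to these genes. The ends of the orders were far apart for the genes that fell. CLDN2 had its lowest mean in Ota high dose at 72 h, 6.92 ± 0.77, and its highest in the Aa controls at 24 h, 10.99 ± 0.29 (SD, n = 3 each). CLDN1 had its lowest mean in Ota high dose at 24 h, 12.18 ± 0.44, and its highest in the Aa controls at 24 h, 14.59 ± 0.12. OCLN was lowest in Ota high dose at 24 h, 6.90 ± 1.68, and highest in the Ota controls at 72 h, 10.60 ± 0.17. CLDN11 and TJP1 ran the other way, with their highest means in Ota high dose at 24 h, 11.77 ± 0.12 and 11.75 ± 0.30. CLDN11 was lowest in Aa low dose at 48 h (9.95 ± 0.09) and TJP1 in Aa high dose at 48 h (10.66 ± 0.17). CLDN16 ran between a mean of 6.63 ± 0.81 in Aa high dose at 48 h and 9.84 ± 0.77 in the Ota controls at 72 h. The whole range of group means was 1.03 for CLDN4 and 1.07 for CLDN12, against 4.07 for CLDN2.

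All 10 genes were found in RefSeq tables of assembly GRCh38.p14. CLDN1 (minus strand) lies within the span of CLDN16 (plus strand) on chromosome 3, CLDN3 and CLDN4 are neighbours on chromosome 7, and OCLN lies beside MARVELD2 on chromosome 5. CLDN2 is on chromosome X, CLDN7 on 17, CLDN11 on 3, CLDN12 on 7 and TJP1 on 15. The windows of 300 bases around the first listed start of 4 genes that fell at the high doses, 250 bases before the start and 50 after it, are printed to show what lies before them. Capitals mark CAGGTG, the core that zinc finger repressors of epithelial genes such as SNAI1 are known to bind, searched on both strands.
CLDN1 promoter, chr3:190322397-190322696, minus strand: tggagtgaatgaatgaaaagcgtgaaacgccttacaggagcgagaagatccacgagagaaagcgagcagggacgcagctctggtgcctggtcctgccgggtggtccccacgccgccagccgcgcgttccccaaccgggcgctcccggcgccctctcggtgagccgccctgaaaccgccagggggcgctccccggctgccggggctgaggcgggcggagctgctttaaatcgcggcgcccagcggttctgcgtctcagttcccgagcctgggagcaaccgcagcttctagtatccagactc
CLDN2 promoter, chrX:106899914-106900213, plus strand: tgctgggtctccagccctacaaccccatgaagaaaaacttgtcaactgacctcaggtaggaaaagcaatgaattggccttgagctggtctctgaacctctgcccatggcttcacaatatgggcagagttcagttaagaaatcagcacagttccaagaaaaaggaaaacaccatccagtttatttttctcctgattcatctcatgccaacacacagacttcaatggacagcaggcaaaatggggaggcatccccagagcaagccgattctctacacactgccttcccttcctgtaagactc
CLDN3 promoter, chr7:73770221-73770520, minus strand: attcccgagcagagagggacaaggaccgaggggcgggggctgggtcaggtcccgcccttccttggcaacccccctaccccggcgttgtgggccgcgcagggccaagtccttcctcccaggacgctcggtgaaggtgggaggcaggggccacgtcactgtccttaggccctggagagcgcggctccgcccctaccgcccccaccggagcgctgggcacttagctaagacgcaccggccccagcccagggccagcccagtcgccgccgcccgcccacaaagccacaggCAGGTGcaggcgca
OCLN promoter, chr5:69492297-69492596, plus strand: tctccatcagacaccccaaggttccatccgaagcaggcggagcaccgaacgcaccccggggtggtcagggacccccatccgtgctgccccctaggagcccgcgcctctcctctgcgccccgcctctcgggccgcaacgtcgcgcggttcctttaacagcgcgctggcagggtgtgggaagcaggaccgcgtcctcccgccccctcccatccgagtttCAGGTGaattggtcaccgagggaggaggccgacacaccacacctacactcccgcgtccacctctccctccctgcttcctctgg
The motif began 37 bases past the CLDN3 start and 33 bases before the OCLN start (position -33), and the CLDN1 and CLDN2 windows held none. Over all listed starts it was present in 6 of 18 windows, of 5 of the 10 genes: CLDN3, CLDN7, CLDN16, OCLN and TJP1. Of all 35116 windows of this length, 20.6% held it. A match describes the letters only, and no binding was measured.

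Aa at the high dose lowered the pore former CLDN2, the barrier claudin CLDN1 and CLDN16 at both times, and occludin at 48 h. A smaller occludin call at 24 h did not hold in every setting. At 24 h, 0 of 9 tested genes were called higher and 5 lower, where 27.4% of all tested genes were called higher and 24.0% lower. At 48 h, 0 were called higher and 6 lower, where 30.9% of all tested genes were called higher and 35.1% lower. The median change of the 9 genes was -0.44 at 24 h and -1.43 at 48 h, beside medians of 0.03 and -0.04 over all genes tested. A gene was called at an adjusted p under 0.05 in limma with Benjamini-Hochberg adjustment over all tested genes.

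CLDN2 read 8.83, 8.59 and 7.81 in Aa high dose at 24 h, against 11.24, 11.05 and 10.67 in the controls. The groups did not overlap, and the change of -2.58 ± 0.36 (SE) was a 5.97-fold lower level (adjusted p = 2.88e-05). At 48 h it read 9.26, 8.87 and 7.83 in high dose against 11.14, 10.80 and 10.55 in controls, a change of -2.18 ± 0.36 (adjusted p = 7.51e-05). Replicate 3 was the lowest of its group in both treated and control cultures at both times. CLDN1 read 13.27, 13.66 and 13.73 at 24 h in high dose against 14.46, 14.62 and 14.69 in controls, and 13.13, 13.14 and 13.11 at 48 h against 14.41, 14.54 and 14.74. It fell by 1.03 ± 0.14 at 24 h (adjusted p = 1.95e-05) and by 1.43 ± 0.14 at 48 h (adjusted p = 3.94e-07), with no overlap at either time.

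CLDN16 varied widely between replicates, and each treated culture lay below all controls. Its high dose values were 5.79, 6.95 and 7.84 at 24 h against 8.46, 9.60 and 9.63 in controls, and 5.71, 6.93 and 7.24 at 48 h against 8.63, 9.71 and 10.21. The changes were -2.37 ± 0.62 (adjusted p = 0.00512) and -2.89 ± 0.62 (adjusted p = 0.000820), and the second was 7.41-fold. CLDN3 had 4.46, 4.21 and 4.47 in high dose at 24 h against 5.72, 5.04 and 5.11 in controls, without overlap. Its change of -0.91 ± 0.39 was not called (adjusted p = 0.0602) and was called with replicate number as a block (adjusted p = 0.00728), with either of 2 high dose arrays at 48 h left out (replicate 1, 0.0300; replicate 2, 0.0183), and under quantile normalization (0.0411) or a common median (0.0320). The call was also made with values at or under 4 set to 4 (0.0094), in the fit to all 36 arrays (0.0145) and in a fit to only the groups compared (0.0079). At 48 h CLDN3 fell to 4.21, 2.35 and 3.50 in high dose, against 6.22, 5.47 and 6.04 in controls. That change was -2.56 ± 0.39 (adjusted p = 3.25e-05), and -1.84 with values at or under 4 set to 4, since only 1 treated array exceeded 4.

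OCLN read 8.26, 8.47 and 8.78 in Aa high dose at 24 h, against 8.88, 8.91 and 9.04 in controls. The change was -0.44 ± 0.17 (adjusted p = 0.0403), and leaving out any 1 control or either of high dose replicates 1 and 2 ended the call (highest adjusted p = 0.170). It was also lost with no filter on low values (0.0682) and in the fit to all 36 arrays (0.397). At 48 h OCLN fell to 7.66, 7.88 and 8.34, against 9.35, 9.44 and 9.39 in controls, by 1.44 ± 0.17 (adjusted p = 2.67e-06). TJP1, its scaffold, changed less: 10.59, 10.53 and 10.85 in high dose at 48 h against 11.15, 10.87 and 11.08 in controls, without overlap. That was a change of -0.37 ± 0.11 (adjusted p = 0.00671), and at 24 h TJP1 differed by -0.05 ± 0.11 (adjusted p = 0.724). CLDN12 fell by 0.35 ± 0.10 at 24 h (adjusted p = 0.00976), with 9.06, 9.08 and 8.93 in high dose against 9.32, 9.32 and 9.46, and differed by 0.00 at 48 h. CLDN4 and CLDN11 were not called at either time, with changes between -0.15 and 0.03.

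**Figure D2:**
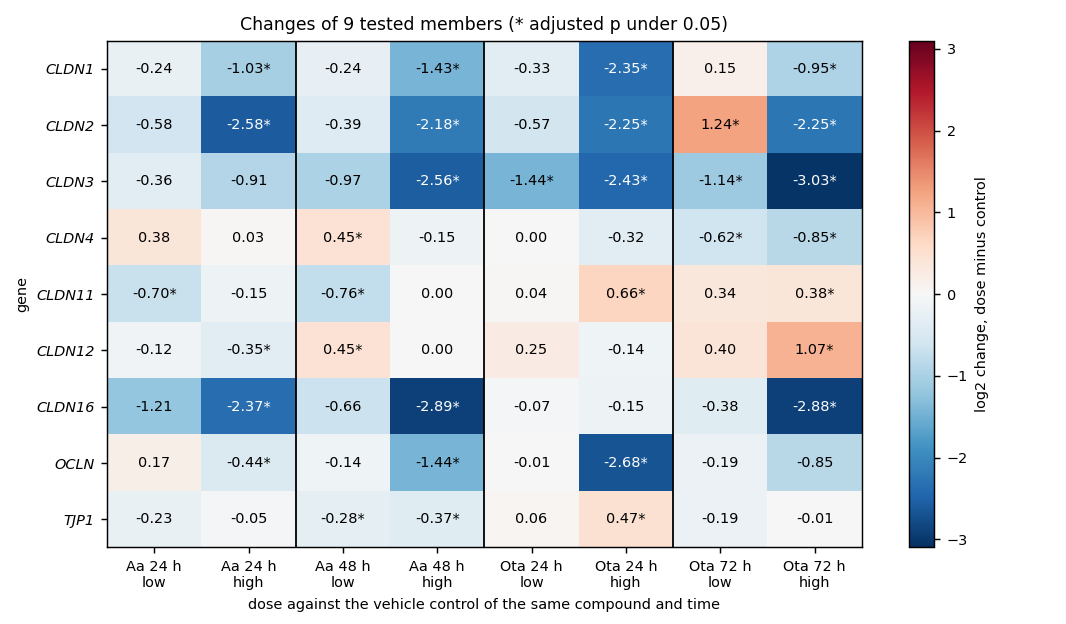
Log2 change against the matching vehicle controls (colour and number) of the 9 tested genes (rows) in the 8 dose comparisons (columns); an asterisk marks an adjusted p under 0.05. The high dose columns hold negative values for CLDN1, CLDN2, CLDN3 and OCLN throughout, while CLDN11 and CLDN12 hold both signs.

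At the low dose of Aa, CLDN11 was the only member called at both times without the replicate block, and it was lower: 10.12, 9.66 and 10.25 in low dose at 24 h against 10.79, 10.44 and 10.88 in controls, and 9.94, 9.86 and 10.04 at 48 h against 10.53, 10.75 and 10.86. Its changes were -0.70 ± 0.15 (adjusted p = 0.00352) and -0.76 ± 0.15 (adjusted p = 0.00123), with no overlap. At the high dose CLDN11 was near its controls, so that high dose exceeded low dose by 0.55 at 24 h (adjusted p = 0.0136) and by 0.76 at 48 h. Without high dose replicate 1 or low dose replicate 2, the first of these calls was lost (highest adjusted p = 0.0805).

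At 24 h, 1 of 9 genes was called with the low dose, where 25.1% of all tested genes were called, and at 48 h 4 were, where 37.9% were. The calls at 48 h were 2 higher and 2 lower. CLDN12 rose to 9.92, 9.90 and 9.91, against 9.32, 9.41 and 9.66 in controls (0.45 ± 0.10, adjusted p = 0.00287). CLDN4 read 8.67, 8.10 and 8.58 against 7.87, 7.87 and 8.27, a change of 0.45 ± 0.15 with overlapping groups (adjusted p = 0.0324). That call was lost without low dose replicate 1 or 3 or without control replicate 1 or 2 (highest adjusted p = 0.143). TJP1 read 10.77, 10.76 and 10.70 against 11.15, 10.87 and 11.08, a change of -0.28 ± 0.11 (adjusted p = 0.0496). Its call was kept in 4 of 18 leave-one-out fits, those without low dose replicate 2 at 24 h, control replicate 2 at 48 h, or high dose replicate 2 or 3 at 48 h (highest adjusted p of the others = 0.166), and was lost under quantile normalization (0.0599) and a common median (0.0906).

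Aa cultures with the same number deviated together, and a replicate block added calls at the low dose. With it, 3 genes were called at 24 h, where 39.4% of all tested genes were. The calls added were CLDN2 (change -0.58, adjusted p = 0.00657) and CLDN16 (-1.21, adjusted p = 0.000694). At 48 h 8 were called, where 53.2% of all tested genes were. Added were CLDN1 (-0.24, 0.0455), CLDN2 (-0.39, 0.0373), CLDN3 (-0.97, 0.00667) and CLDN16 (-0.66, 0.0181), each named with its change and adjusted p. CLDN3 was also called at 48 h with arrays set to a common median (0.0493) or values at or under 4 set to 4 (0.0098). The fit to all 36 arrays (0.0143), a fit to only the groups compared (0.0401) and 4 leave-one-out fits called it too. Between the doses, 4 of 9 genes were called at 24 h (27.1% of all genes) and 8 at 48 h (46.5% of all genes). CLDN1 (-0.80), CLDN2 (-1.99) and OCLN (-0.61) were lower and CLDN11 higher in high dose than in low dose at 24 h. The OCLN call there was lost without high dose replicate 1 or low dose replicate 2 (highest adjusted p = 0.0706), CLDN16 was called with the block (adjusted p = 0.000779), and CLDN4 (-0.47) and CLDN12 (-0.34) were called with arrays set to a common median. At 48 h CLDN1, CLDN2, CLDN3, CLDN4, CLDN12, CLDN16 and OCLN were lower and CLDN11 higher in high dose, and TJP1 differed by -0.09. Of all genes called between the doses at 24 h, 63.2% were higher in high dose, and 46.6% with arrays set to a common median.

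Ota at the high dose lowered CLDN1, CLDN2 and CLDN3 at both times, and raised CLDN11. At 24 h, 2 of 9 genes were called higher and 4 lower, where 21.6% of all tested genes were called higher and 42.4% lower. At 72 h, 2 were called higher and 5 lower, where 26.3% and 37.0% of all tested genes were called higher and lower. The median of the 9 changes was -0.32 at 24 h and -0.85 at 72 h, beside -0.26 and -0.12 over all genes. Of all called genes 33.7% were higher at 24 h and 41.5% at 72 h. With arrays set to a common median these shares were 65.0% and 59.3%, and 3 higher and 4 lower members were called at 24 h, 3 higher and 5 lower at 72 h.

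CLDN1 read 12.08, 11.80 and 12.66 in Ota high dose at 24 h, against 14.54, 14.42 and 14.63 in controls. No arrays overlapped, and the level was 5.10-fold lower (-2.35 ± 0.27, adjusted p = 1.87e-06). At 72 h it read 13.33, 12.76 and 14.06 in high dose against 14.40, 14.04 and 14.55, with replicate 3 of the high dose inside the control range. This change was -0.95 ± 0.27 (adjusted p = 0.00644). CLDN2 was 8.26, 8.36 and 8.74 in high dose at 24 h against 10.74, 10.78 and 10.59 in controls, and 6.53, 6.42 and 7.81 at 72 h against 9.43, 9.22 and 8.84. Its change was -2.25 ± 0.31 at both times (adjusted p = 1.32e-05 and 1.38e-05), with no overlap.

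CLDN3 fell under 4 on every Ota high dose array on the probe set used. Its second set read 5.47 to 5.72 on those 6 arrays and exceeded 4 on all 36. The set used read 3.26, 3.26 and 3.65 at 24 h against 5.91, 5.86 and 5.68 in controls, and 3.25, 3.26 and 3.36 at 72 h against 6.25, 6.19 and 6.52. Since levels under 4 have no dependable order, it was at least 3.53-fold lower at 24 h (adjusted p = 3.78e-09) and at least 5.00-fold lower at 72 h (adjusted p = 5.82e-10), each bound set against 4. These bounds are for the set used. The second set was called lower at both times too, by less than these bounds. The neighbouring gene CLDN4 read 7.34, 7.41 and 7.50 at 24 h against 7.87, 7.76 and 7.58 in controls. Its change of -0.32 ± 0.17 was not called (adjusted p = 0.116), and was 0.35 with arrays set to a common median and 0.39 after quantile normalization. At 72 h CLDN4 fell by 0.85 ± 0.17 (adjusted p = 0.000478), with 7.44, 7.53 and 7.44 in high dose against 8.36, 7.87 and 8.71.

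CLDN16 was called in Ota high dose at 72 h and not at 24 h. It read 7.98, 8.61 and 8.87 at 24 h against 8.58, 8.24 and 9.08 in controls (-0.15 ± 0.51, adjusted p = 0.811; 0.52 with arrays set to a common median). At 72 h it read 6.08, 6.54 and 8.24 against 9.80, 9.09 and 10.62, a 7.39-fold lower level (-2.88 ± 0.51, adjusted p = 0.000133). CLDN11 rose to 11.76, 11.89 and 11.66 in high dose at 24 h, against 11.24, 10.90 and 11.18 in controls (0.66 ± 0.14, adjusted p = 0.000688). At 72 h it read 10.90, 10.75 and 10.84 against 10.48, 10.24 and 10.63, a change of 0.38 ± 0.14 (adjusted p = 0.0281). Leaving out control replicate 1 or 2, or replicate 1 or 3 of the high dose, ended the call at 72 h (highest adjusted p = 0.136). CLDN12 rose at 72 h to 10.09, 9.82 and 10.06, against 8.85, 8.89 and 9.03 in controls (1.07 ± 0.20, adjusted p = 0.000214). At 24 h it was not called (-0.14, adjusted p = 0.550), but with arrays set to a common median it was called higher (0.53, adjusted p = 0.00709).

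OCLN fell at 24 h, with 7.56, 4.99 and 8.16 in Ota high dose against 9.49, 9.71 and 9.56 in controls. Replicate 2 lay far below the other high dose cultures, no arrays overlapped, and the change was -2.68 ± 0.52 (adjusted p = 0.000335), called in every fit without 1 array. At 72 h OCLN read 9.91, 9.35 and 9.97 against 10.51, 10.49 and 10.79, again without overlap. This difference of -0.85 ± 0.52 was not called (adjusted p = 0.170). It was called without replicate 2 of high dose at 24 h (adjusted p = 0.00104) and in a fit to only the groups compared (0.0083). TJP1 read 11.91, 11.40 and 11.94 at 24 h against 11.47, 11.17 and 11.18, a change of 0.47 ± 0.14 (adjusted p = 0.00777) with overlapping groups. At 72 h TJP1 differed by -0.01, and by 0.34 with arrays set to a common median, where it was called higher (adjusted p = 0.0205).

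At the low dose of Ota, CLDN3 was again lower at both times and few other genes were called. At 24 h 1 of 9 genes was called, where 14.7% of all tested genes were, and at 72 h 3 were, where 17.1% were. Of all calls at 24 h, 31.7% were higher, and 58.2% with arrays set to a common median. CLDN3 read 4.67, 4.12 and 4.36 in low dose at 24 h against 5.91, 5.86 and 5.68 in controls, and 5.28, 5.30 and 4.97 at 72 h against 6.25, 6.19 and 6.52. The changes were -1.44 ± 0.16 (adjusted p = 2.12e-05) and -1.14 ± 0.16 (adjusted p = 0.000198), both without overlap. CLDN2 went against its high dose change at 72 h: it rose to 10.44, 10.34 and 10.42 in low dose, against 9.43, 9.22 and 8.84 in controls. That was 1.24 ± 0.31 (adjusted p = 0.0128), not called without control replicate 3 (adjusted p = 0.0662). The summed level of the fibroblast markers was 10.7 to 11.2 in low dose at 72 h against 9.55 to 9.90 in controls, with 2 of 3 tested markers called higher, and its part in the CLDN2 result was not tested. CLDN4 fell at 72 h by 0.62 ± 0.17 (adjusted p = 0.0206), with 7.61, 7.60 and 7.87 against 8.36, 7.87 and 8.71. Leaving out control replicate 1 or 3, or replicate 1 or 2 of the low dose, ended that call (highest adjusted p = 0.117).

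Between Ota doses, 6 genes were called at 24 h, where 58.1% of all genes were, and 5 at 72 h, where 58.4% were. At 24 h CLDN1 (-2.02), CLDN2 (-1.68), OCLN (-2.67) and CLDN3 (at least 1.30-fold on the set used) were lower in high dose than in low dose. CLDN11 (0.62) and TJP1 (0.42) were higher there. At 72 h CLDN1 (-1.10), CLDN2 (-3.48), CLDN16 (-2.50) and CLDN3 (at least 2.27-fold on the set used) were lower and CLDN12 (0.67) was higher. TJP1 lost its call at 24 h without high dose replicate 1 or 3 or low dose replicate 3 (highest adjusted p = 0.0793). That call was also lost on the second TJP1 set (0.44, adjusted p = 0.168) and in a fit to only the groups compared (0.114). Of all called genes, 33.4% were higher in high dose at 24 h and 37.2% at 72 h, and 64.6% and 60.3% with arrays set to a common median.

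Several of the genes differed between control cultures of different times. Between the Aa controls at 48 h and at 24 h, 0 of 9 genes were called in limma with Benjamini-Hochberg adjustment (1.29% of all tested genes), with 1 at an unadjusted p under 0.05. OCLN, 9.35, 9.44 and 9.39 at 48 h against 8.88, 8.91 and 9.04 at 24 h, was called with the replicate block (0.45, adjusted p = 0.0261). Between the Ota controls at 72 h and at 24 h, 4 were called (29.8% of all tested genes). CLDN2 was lower at 72 h, 9.43, 9.22 and 8.84 against 10.74, 10.78 and 10.59 at 24 h (-1.54 ± 0.31, adjusted p = 0.00162). The fibroblast markers summed to 9.55 to 9.90 at 72 h against 11.3 to 11.6 at 24 h, with 2 of 3 tested called lower, and their part in this difference was not tested. CLDN11 was lower too, by 0.65 ± 0.14, while CLDN3 (0.50) and CLDN4 (0.58) were higher. The CLDN3 call was lost without control replicate 2 or 3 at 24 h or replicate 3 at 72 h (highest adjusted p = 0.118) and in the fit to all 36 arrays (0.218), and the CLDN4 call without replicate 3 at 24 h or replicate 1 or 3 at 72 h (0.111). OCLN was 1.01 ± 0.52 higher at 72 h without overlap and not called (adjusted p = 0.166). It was called without replicate 2 of Ota high dose at 24 h (adjusted p = 0.000778), in a fit to only the groups compared (0.0013) and on the second OCLN set (1.31, adjusted p = 0.0065). Each high dose change rests on the controls of its own time.

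**Figure D3:**
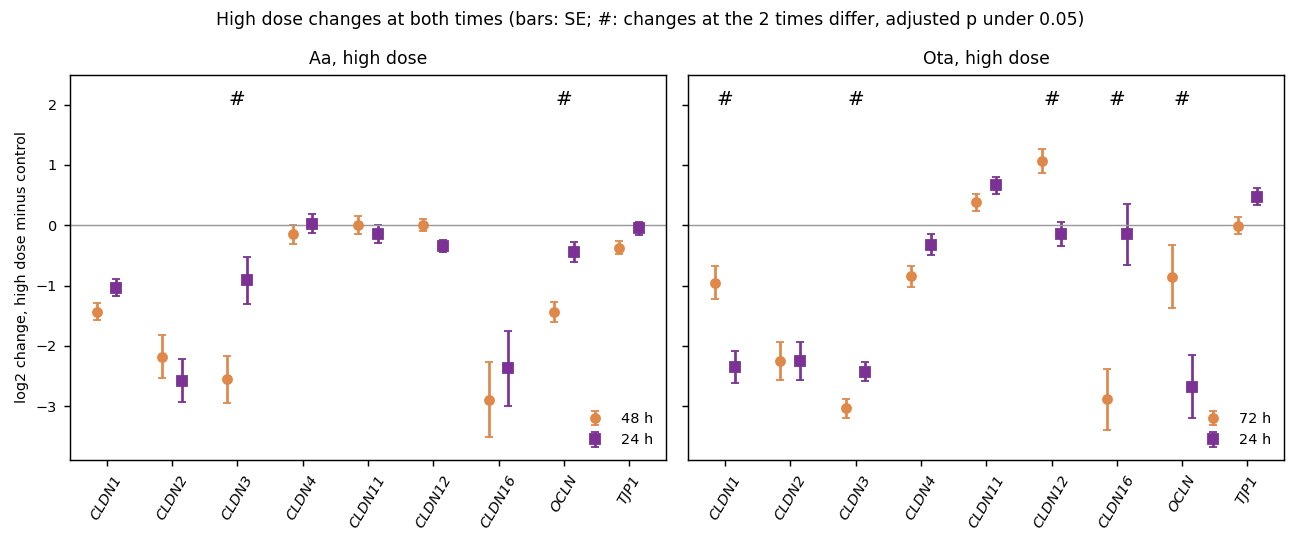
Log2 change of the high dose against its own controls (y axis, ± SE) for the 9 tested genes at the later and the earlier time of Aa and of Ota (colours); # marks a called difference between the times. For Ota the CLDN16 change was -2.88 at 72 h and -0.15 at 24 h, and the CLDN1 change -0.95 at 72 h and -2.35 at 24 h.

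The high dose change itself was compared between times as an interaction, for which both times share no array. For Aa, 2 genes were called (20.7% of all tested genes): the change at 48 h minus that at 24 h was -0.997 ± 0.237 for OCLN (adjusted p = 0.00955) and -1.64 ± 0.55 for CLDN3 (adjusted p = 0.0445). The OCLN call was lost in the fit to all 36 arrays (adjusted p = 0.237) and on the third OCLN probe set (-1.01, adjusted p = 0.126). The CLDN3 call was kept in 7 of 18 leave-one-out fits, those without control or low dose replicate 1 at 24 h, low dose replicate 3 at 24 h, high dose replicate 1 at 48 h, control replicate 2 at 48 h, or low dose replicate 1 or 2 at 48 h (highest adjusted p of the others = 0.0990). With values at or under 4 set to 4 it was -0.93 and not called (adjusted p = 0.0882), and on the second CLDN3 set -0.65 and not called (0.223). The replicate block added CLDN1 (adjusted p = 0.0312) and TJP1 (adjusted p = 0.0497). Of all called genes 34.4% were higher, and 49.6% with arrays set to a common median. At the Aa low dose 0 of the 9 genes were called in limma (1.64% of all tested genes) and 1 had an unadjusted p under 0.05. CLDN12 was called there with the block (0.57, adjusted p = 0.0224).

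For Ota, 5 genes were called between times at the high dose (53.8% of all tested genes). The change at 72 h minus that at 24 h was positive for CLDN1, 1.40 ± 0.39 (adjusted p = 0.00648), whose fall was smaller at 72 h. It was also positive for CLDN12, 1.21 ± 0.28 (adjusted p = 0.00203), and for OCLN, 1.83 ± 0.74 (adjusted p = 0.0481). It was negative for CLDN16, -2.73 ± 0.72 (adjusted p = 0.00485), and for CLDN3, -0.60 ± 0.23 (adjusted p = 0.0340). The CLDN3 arrays of high dose were under 4 at both times, and with values at or under 4 set to 4 the difference was -0.50. The CLDN2 interaction was 0.01, with a change of the same size at both times. OCLN kept its call in 4 of 18 leave-one-out fits, those without high dose replicate 1, 2 or 3 at 24 h or replicate 2 at 72 h (highest adjusted p of the others = 0.0902). That OCLN call was also lost on the second OCLN set (0.97, adjusted p = 0.0875) and on the third (0.57, adjusted p = 0.3917). Quantile normalization (0.1073), no filter on low values (0.1104) and a fit to only the groups compared (0.1003) ended it too. CLDN3 lost its call without replicate 3 of control or high dose at 24 h, replicate 3 of control at 72 h, or replicate 1 or 2 of high dose at 72 h (0.0901). Its call was also lost after quantile normalization (0.0646), in the fit to all 36 arrays (0.236) and on its second set (-0.62, 0.0621). With arrays set to a common median OCLN was not called (adjusted p = 0.0682), CLDN4 (-0.86), TJP1 (-0.81) and CLDN11 (-0.61) were called, and the share of higher calls over all genes was 45.0%, against 61.3%. At the Ota low dose 1 gene, CLDN2, was called (7.34% of all tested genes), with 1.81 ± 0.44 (adjusted p = 0.0235). That call was lost without replicate 1 of control or replicate 2 of low dose at 24 h, or without replicate 3 of control or replicate 1 or 3 of low dose at 72 h (highest adjusted p = 0.0653). It was also lost with no filter on low values (0.0556). Of all called genes there 72.4% were higher, and 44.9% with arrays set to a common median.

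At 24 h, the time that both compounds share, the high dose changes of Ota and Aa were set side by side, with doses that are not matched. The difference, Ota minus Aa, was called for 6 of 9 genes, where 59.4% of all tested genes were called. CLDN1 (-1.31 ± 0.31, adjusted p = 0.000704), CLDN3 (-1.52 ± 0.43, adjusted p = 0.00340) and OCLN (-2.24 ± 0.57, adjusted p = 0.00140) were lower with Ota. With values at or under 4 set to 4, since the Ota arrays were under 4, the CLDN3 difference was -0.91. CLDN11 (0.81 ± 0.21, adjusted p = 0.00135), TJP1 (0.53 ± 0.17, adjusted p = 0.0109) and CLDN16 (2.22 ± 0.84, adjusted p = 0.0244) were higher with Ota. The TJP1 call was lost on the second TJP1 set (0.27, adjusted p = 0.505) and in a fit to only the groups compared (0.077). CLDN2 changed by -2.25 with Ota and -2.58 with Aa, and the difference of 0.33 ± 0.49 was not called (adjusted p = 0.585). With arrays set to a common median, which added 0.74, CLDN1 (-0.57, adjusted p = 0.106) and CLDN3 (-0.77, adjusted p = 0.0891) were not called, while CLDN2 (1.07) and CLDN12 (0.95) were called higher. The share of higher calls over all genes was then 64.1%, against 31.4%. CLDN16 lost its call without Aa high dose replicate 1, Aa control replicate 2 or 3, Ota control replicate 2 or Ota high dose replicate 3 (highest adjusted p = 0.0934). At the low dose 1 gene was called (4.94% of all tested genes), CLDN11, with 0.74 ± 0.21 (adjusted p = 0.0344). This call was lost without Aa control replicate 1 or 3, Aa low dose replicate 2, Ota control replicate 2 or Ota low dose replicate 1 or 3 (highest adjusted p = 0.105), and the replicate block added CLDN3 (adjusted p = 0.0300). Of all calls there 28.1% were higher, and 46.7% with arrays set to a common median.

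Read on other probe sets of the same gene, 3 called results turned their direction, 2 of OCLN and 1 of TJP1. Another 11 turned with no call on either set. The second OCLN set read 2.92, 2.84 and 2.90 in Aa high dose at 48 h against 6.10, 6.09 and 5.41 in controls. The third OCLN set read 3.71, 3.30 and 3.73 in Ota high dose at 24 h against 5.79, 5.64 and 6.26, and in Ota high dose at 72 h it was called lower (-1.75, adjusted p = 0.000860), where the set used was not. In Aa high dose at 24 h, the third set changed by 0.13 (adjusted p = 0.764) and the second by -0.20 (adjusted p = 0.511), so the OCLN fall there was called on 1 set. The third set gave 0.40 (adjusted p = 0.405) between the Aa doses at 24 h, where the set used gave -0.61. The second TJP1 set changed by -0.23 in Ota high dose at 24 h (adjusted p = 0.462), against 0.47 on the set used. It was called lower in Aa high dose (-0.50, adjusted p = 0.0410) and Aa low dose (-0.73, adjusted p = 0.0120) at 24 h. On it TJP1 was not called between Ota doses at 24 h (0.44, adjusted p = 0.168) or for Ota minus Aa at the high dose (0.27, adjusted p = 0.505). The second CLDN3 set, of a kind whose probes can also match other transcripts, was called lower in Aa high dose at 24 h (-0.78, adjusted p = 0.0210). On it CLDN3 was not called between Ota doses at 24 h (-0.16, adjusted p = 0.499) or for Ota minus Aa at the high dose (-0.38, adjusted p = 0.323). The second CLDN1 set gave -0.86 for Ota minus Aa at the high dose (adjusted p = 0.143) and 1.26 for the Ota time interaction (adjusted p = 0.0936), neither called.

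**Figure D4:**
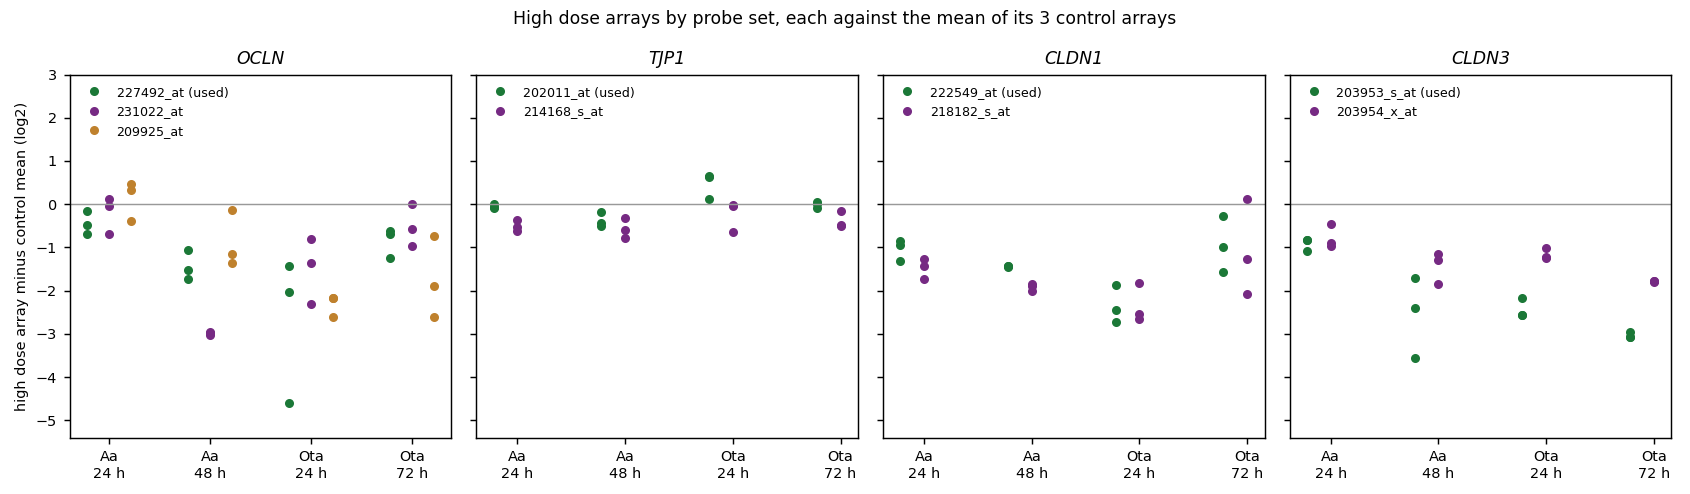
High dose arrays minus the mean of their controls (y axis, log2) for every probe set past the filter of OCLN, TJP1, CLDN1 and CLDN3 (colours; the set used, then the second and the third set as the legends list them) in the 4 high dose groups (x axes); points are arrays. The CLDN3 arrays lie below 0 on both sets, while in Ota at 24 h the TJP1 sets average 0.47 and -0.23.

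Around these genes, 100 other junction genes in 6 lists were followed. Their counts stand beside the shares of all tested genes called higher and lower at the high dose, which were 27.4% and 24.0% in Aa at 24 h, 30.9% and 35.1% in Aa at 48 h, 21.6% and 42.4% in Ota at 24 h, and 26.3% and 37.0% in Ota at 72 h. With arrays set to a common median, 74.3% of all tested genes were called in Ota at 24 h, 65.0% of them higher. At 72 h 67.8% were then called, 59.3% of them higher. Of 16 other claudins, 12 had a probe set of their own and 2 passed the filter, CLDN15 and CLDN19. CLDN15, a pore former of the intestine, rose in all 4 high dose comparisons. It read 8.01, 7.41 and 7.62 in Aa high dose at 24 h against 5.99, 5.98 and 5.51 in controls, and 6.98, 7.02 and 7.04 in Ota high dose at 24 h against 5.85, 5.98 and 5.89. Its changes were 1.85 ± 0.22 and 1.61 ± 0.22 with Aa at 24 h and 48 h, and 1.10 ± 0.18 and 0.76 ± 0.18 with Ota at 24 h and 72 h. CLDN19, the partner of CLDN16 in the thick ascending limb, was not called, with changes between -0.27 and 0.06; in Ota at 24 h it was called higher with arrays set to a common median (0.64).

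The scaffold and polarity genes around TJP1 had more members called lower than higher in the 4 high dose comparisons, except in Ota at 24 h with arrays set to a common median. With Aa, 2 were called higher and 10 lower of 19 at 24 h, and 2 higher and 15 lower at 48 h, with median changes of -0.52 and -1.05. With Ota, 1 was higher and 11 lower of 20 at 24 h, and 2 higher and 12 lower at 72 h, with medians of -0.63 and -0.81. With arrays set to a common median the Ota counts were 6 higher and 3 lower at 24 h and 4 higher and 9 lower at 72 h. Of all called genes 65.0% and 59.3% were then higher. CGNL1, which encodes paracingulin, fell by 4.76 ± 0.45 in Ota high dose at 24 h and by 3.11 ± 0.45 at 72 h, or by 4.52 and 2.63 with values at or under 4 set to 4. The polarity gene PARD3 fell by 2.68 ± 0.21 in Aa high dose at 24 h, the scaffold PATJ by 2.95 ± 0.33 at 48 h, and MPDZ by 2.33 ± 0.25 in Ota high dose at 24 h. Another PATJ set was called lower by less at 48 h (-0.62). MAGI3 was at least 6.90-fold lower in Aa high dose at 24 h and at least 6.39-fold at 48 h, and PARD3B at least 4.24-fold in Ota high dose at 72 h.

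Other membrane proteins of the junction moved both ways: 1 higher and 3 lower of 8 in Aa at 24 h, 2 and 2 at 48 h, 1 and 4 in Ota at 24 h, and 3 and 4 at 72 h. MARVELD2, the tricellular relative and genomic neighbour of OCLN, rose by 1.33 ± 0.17 in Aa high dose at 24 h. Another of its sets gave 0.38 there and was not called (adjusted p = 0.0857). CRB3 fell by 1.53 ± 0.14 and 2.10 ± 0.14 in Ota high dose at 24 h and 72 h, and MARVELD3 by 1.49 at 24 h (by 1.08 with values at or under 4 set to 4), with a level at least 2.90-fold lower at 72 h. ILDR2 fell by 1.91 in Aa high dose at 24 h and was at least 5.08-fold lower at 48 h, where LSR rose by 1.82 ± 0.46. Of the signalling partners, 2 were higher and 3 lower of 12 in Aa at 24 h, 2 and 6 at 48 h, 3 and 4 of 11 in Ota at 24 h, and 4 and 3 at 72 h. WNK4, a kinase known to phosphorylate claudins, was at least 13.1-fold higher in Aa high dose at 24 h and at least 28.0-fold at 48 h. MICALL2, a partner of RAB13, rose by 1.61 and 1.90 with Aa and fell by 1.49 in Ota high dose at 24 h, where another of its sets was called higher (0.43). That other set was not called in Aa high dose (0.26 at 24 h and 0.24 at 48 h), where a further MICALL2 set was called higher (2.62 and 2.08). GNA12 fell by 1.82 in Ota high dose at 24 h, and at 72 h RAB13 fell by 2.48 and CDC42 rose by 1.40. With arrays set to a common median, the Ota counts were 2 higher and 3 lower membrane proteins at 24 h and 3 and 2 at 72 h, and 6 higher and 2 lower signalling partners at 24 h and 8 and 1 at 72 h. Of all called genes 65.0% at 24 h and 59.3% at 72 h were then higher.

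Of 13 adherens junction genes, 1 was higher and 6 lower in Aa high dose at 24 h, 1 and 8 at 48 h, 3 and 3 in Ota high dose at 24 h, and 4 and 6 at 72 h. With arrays set to a common median the Ota counts were 8 higher and 2 lower at 24 h and 5 and 4 at 72 h. Of all called genes 65.0% and 59.3% were then higher. CDH1, the epithelial cadherin, fell by 1.54 and 1.14 in Aa high dose at 24 h and 48 h and by 3.27 ± 0.28 in Ota high dose at 72 h. CDH2 fell by 1.62 and 2.05 with Aa, and the kidney cadherin CDH16 by 4.01 ± 0.23 in Ota high dose at 72 h. NECTIN3 fell by 4.28 in Ota high dose at 24 h, and another of its sets was called lower by less (-0.64). NECTIN2 rose by 1.99 there, with another of its sets called lower (-1.33). At 72 h NECTIN2 rose by 3.64, and that other set changed by -0.16, which was not called. Of 10 transcriptional regulators of epithelial genes, 2 were higher and 2 lower in Aa at 24 h, 4 and 4 at 48 h, 4 and 3 in Ota at 24 h, and 6 and 2 at 72 h. The repressor SNAI1 was at least 1.52-fold higher in Aa high dose at 24 h and at least 10.7-fold at 48 h, SNAI2 at least 3.23-fold at 48 h, and ZEB2 at least 8.12-fold in Ota high dose at 72 h. The repressor ZEB1 went the other way in Aa high dose, called lower at 24 h (-0.51, adjusted p = 0.0373) and 48 h (-1.15, adjusted p = 0.0001). Another ZEB1 set was called lower at both times (-0.81 and -1.36), and a further set was not called (-0.47 and -0.54). In Ota high dose at 72 h ZEB1 was called higher (0.72, adjusted p = 0.0435). PAX8, a regulator of renal epithelium, fell by 2.51 in Ota high dose at 24 h, where GRHL1 rose by 2.12 (1.94 with values at or under 4 set to 4). Among the other PAX8 sets, some were called lower there and some were not called. The splicing regulator ESRP1 fell by 1.53 in Aa high dose at 24 h (by 1.38 with values at or under 4 set to 4) and by 3.07 in Ota high dose at 72 h. Links between these genes and the claudins were not tested.

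**Figure D5:**
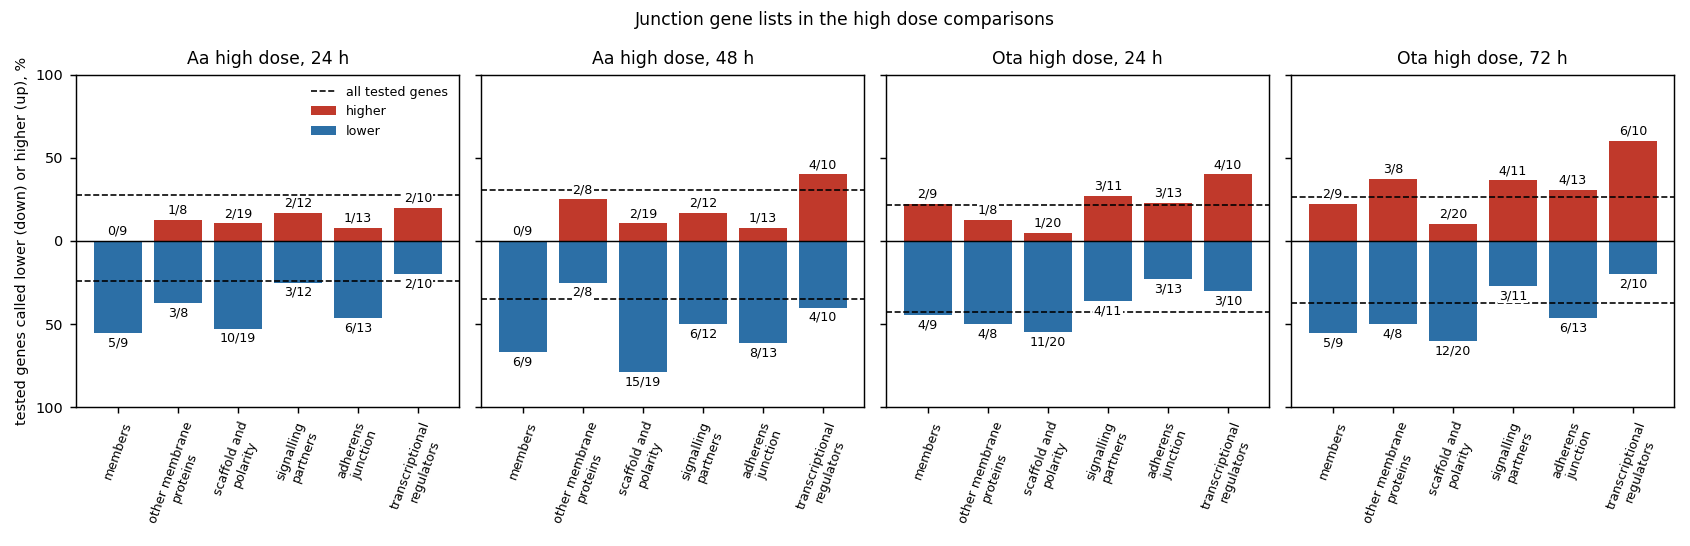
Percent of the tested genes of each junction list called higher (bars up) or lower (bars down; y axis, percent) in the 4 high dose comparisons (panels), with counts beside the bars; dashed lines mark the percent of all tested genes called higher and lower. In Aa high dose at 48 h, 15 of 19 scaffold and polarity genes were called lower.

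As a description of pattern over the 12 group means, which share controls and array scale, Pearson correlations were computed between each gene and the other tested genes among 11405. OCLN was most like IFT56 (r = 0.985) and TRIM5 (0.981), and CLDN1 most like CLASP2 (0.983) and ARFGEF1 (0.980). CLDN2 was nearest to CRYZL2P (0.967) and SLC2A5 (0.942), and CLDN3 to ACBD6 (0.962) and SLC60A2 (0.955). CLDN16 followed NID2 (0.934) and LAMA1 (0.932), both genes of basement membrane proteins, most closely. TJP1 was most like SGPL1 (0.939) and CNOT4 (0.934), and CLDN11 most like MAPK9 (0.870) and again SGPL1 (0.851). CLDN4 was nearest to TMUB1 (0.899) and HIF1AN (0.890), and CLDN12 to SUGP2 (0.883) and UBB (0.876). Among the members themselves, r was highest for CLDN1 with CLDN3 (0.832), CLDN3 with CLDN16 (0.783) and CLDN1 with OCLN (0.773). It was lowest for CLDN4 with CLDN11 (-0.881) and for CLDN4 with TJP1 (-0.611), while CLDN11 with TJP1 gave 0.766.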

How the data were processed

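Total RNA of HK-2 cultures was hybridised to 36 single-colour Affymetrix arrays, and the authors deposited a log2 value for each probe set. Per the submitters' processing notes the tool was GCRMA, which corrects background by probe sequence, normalizes and summarises. The sources used here do not give its version or say if the 36 arrays went through it jointly. No batch information was used, and the number of arrays limits the precision.

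Of 54675 probe sets, 41091 with 1 symbol in the platform annotation represented 19775 genes, each by the set with the highest mean (sets ending in _x_at last). Genes above 4 on at least 3 arrays were tested, 10972 for Aa, 11029 for Ota and 11405 over both. Group means were fitted in limma 3.58.1 (R 4.3.3) to the 18 arrays of a compound, with 12 residual degrees of freedom, or to all 36 between compounds, for 20 comparisons. Calls had an adjusted p under 0.05 (Benjamini-Hochberg over all tested genes, two-sided), and the procedure was tested on simulated data. Folds are lower bounds if the dimmer group had no array above 4.

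Alternatives were other filters, scalings, fits, probe sets, a replicate block and leaving out each array. Same-numbered Aa arrays deviated together (r = 0.189 to 0.595, each best with its own number), so the block is given beside Aa results whose call it changed. The members and lists were chosen with earlier results of these data known. All members were named in every comparison, with, per list and high dose comparison, the 2 called genes with the largest change, each other tested claudin, and the 2 genes most alike in pattern. ZEB1 was named in addition, as a further listed repressor. List counts under other scalings were added after seeing the data. Promoters are RefSeq's (GRCh38.p14). Figures used matplotlib 3.10.9.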

Additional observations from a re-analysis of the deposited data

Results flagged for a closer look

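8 results stood out because the dose change itself differed between times in a test of that difference (limma interaction, later minus earlier change, 3 arrays a group, Benjamini-Hochberg over all tested genes). With Aa at the high dose these were CLDN3 (-1.64 ± 0.55, adjusted p = 0.0445) and OCLN (-0.997 ± 0.237, adjusted p = 0.00955), both lower against control at 48 h than at 24 h. That CLDN3 call was lost in 11 of 18 leave-one-out fits, with values at or under 4 set to 4 (0.0882) and on its second probe set (0.223). The OCLN call was lost in the fit to all 36 arrays (0.237) and on the third OCLN set (0.126). With Ota at the high dose, CLDN16 (-2.73 ± 0.72, adjusted p = 0.00485) was below its controls at 72 h and near them at 24 h, and CLDN3 (-0.60 ± 0.23, adjusted p = 0.0340) was under 4 on the treated arrays of both times, was -0.50 with values at or under 4 set to 4, and lost its call on its second probe set (-0.62, adjusted p = 0.0621). CLDN1 (1.40 ± 0.39, adjusted p = 0.00648) and OCLN (1.83 ± 0.74, adjusted p = 0.0481) were less far below control at 72 h than at 24 h, and CLDN12 (1.21 ± 0.28, adjusted p = 0.00203) was above control at 72 h. At the Ota low dose CLDN2 (1.81 ± 0.44, adjusted p = 0.0235) was above its controls at 72 h, and those controls were themselves lower at 72 h than at 24 h by 1.54 on the log2 scale. The CLDN2 call was lost in 5 of 18 leave-one-out fits and with no filter on low values (0.0556). The causes were not tested.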

How the results depend on the processing

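Of 1531 member results recomputed under alternatives other than leaving out an array, 1422 kept their side of the threshold, 58 became called, 46 lost their call and 5 changed direction with a call in at least 1 of the settings. The 1422 hold 34 that changed sign with no call in either, such as CLDN4 and CLDN16 in Ota high dose at 24 h. Of 3564 leave-one-out results, 3451 kept their side of the threshold (76 changed sign with no call), 22 became called and 91 lost their call. The 5 changes of direction with a call were CLDN12 in Ota high dose at 24 h (0.53) and TJP1 in Ota high dose at 72 h (0.34) with arrays set to a common median, the third OCLN probe set in Aa high dose at 24 h (0.13) and between Aa doses at 24 h (0.40), and the second TJP1 probe set in Ota high dose at 24 h (-0.23).

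Counts of members called that moved over 1.5 times were as follows, and their cause was not tested except where stated. For the Aa high dose interaction of time (2 called), 1 was called with no filter, a filter at 6, values at or under 4 set to 4, all 36 arrays, only the groups compared, the second CLDN3 probe set or the third OCLN probe set, and 4 with the replicate block. With the filter at 6, CLDN3 was not tested for Aa, since fewer than 3 Aa arrays exceeded 6. Shares of all tested genes called were 9.92% (no filter), 23.3% (filter at 6), 21.3% (values set to 4), 17.0% (all 36 arrays) and 19.1% (only the groups compared). For Aa low dose at 24 h (1 called), 2 were called under quantile normalization (25.6% of all tested genes), the second OCLN probe set or the second TJP1 probe set, and 3 with the replicate block. The replicate block gave 8 for Aa low dose at 48 h (4 without it), 1 between Aa controls (0 without it), 1 for the Aa low dose interaction of time (0 without it) and 2 for Ota minus Aa at the low dose (1 without it). With the block, the shares of all tested genes called in these were 53.2%, 16.3%, 9.31% and 9.95%. They were 39.2% for the Aa high dose interaction and 39.4% for Aa low dose at 24 h. For Ota minus Aa at the low dose, 2 were called with values at or under 4 set to 4 (5.66% of all tested genes) and 0 with only the groups compared (7.17%). With no filter 1 was called for the Aa low dose interaction (0.673% of all tested genes) and 0 for that of Ota (1 called with the filter, and 3.37% of all tested genes without it). Between Aa doses at 24 h, 2 were called with only the groups compared, where 19.9% of all tested genes were, against 4 and 27.1% in the main fit.

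Leaving out 1 array gave 1 to 2 calls for Aa low dose at 24 h, 2 to 5 at 48 h, 2 to 4 between Aa doses at 24 h, 1 to 2 for the Aa high dose interaction and 0 to 1 for that of the low dose. It gave 1 to 4 for Ota low dose at 72 h, 2 to 6 between Ota controls, 3 to 6 for the Ota high dose interaction, 0 to 2 for that of the low dose, and 0 to 1 for Ota minus Aa at the low dose. Shares of all genes called in these fits are not given, so the ranges show nothing particular to the members. Same-numbered Ota arrays were not taken as pairs, since r ran between -0.074 and 0.411 over pairs, though 34 of 45 were best with their own number, a hint from the data and not the design. With an Ota replicate block, CLDN16 was called between controls (adjusted p = 0.00813) and TJP1 in the high dose interaction (0.0406). 4 other probe sets, at background, gave no value.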
